A study of Mus musculus with 2 samples.

Results

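The genes described here build or regulate cilia: 54 of the 21938 protein-coding genes of the mouse annotation GENCODE M21, chosen by symbol alone. They are 14 intraflagellar transport genes (Ift), 8 Bardet-Biedl syndrome genes (Bbs), 15 axonemal dynein heavy chain genes (Dnah), 8 radial spoke genes (Rsph), 8 regulatory factor X genes (Rfx) and Foxj1. No gene of that annotation has a symbol of the form Dnai plus a number, and the dynein intermediate chain genes Dnaic1 and Dnaic2 were kept in a separate list. The 22 Ift and Bbs genes are called primary cilium genes below, and the 23 Dnah and Rsph genes motile cilium genes.

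Chromatin accessibility was measured by DNase-seq, in which the enzyme DNase I cuts open chromatin more often than packed chromatin, in 2 libraries of the right cerebral cortex. Both came from male B6CASTF1/J mice aged 2 months, F1 offspring of the strains C57BL/6J and CAST/EiJ, so each autosome is present in a copy from either strain. Biological replicate 1 is labelled animal 5 and biological replicate 2 animal 6; the donor record they point to is the same, so only the animal numbers separate the 2 mice. There was 1 group and no control or treatment, so no test between conditions exists and values are given per library.

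A primary cilium is a single sensory organelle that most cells of the brain carry, neurons and astrocytes included. A motile cilium beats, and in the brain it is found on ependymal cells, which line the ventricles. Intraflagellar transport carries cargo along both kinds, and the BBSome, built of Bbs proteins, moves membrane receptors in and out of the cilium. Axonemal dyneins power the beat, and radial spokes control it. RFX factors bind a DNA element called the X-box at many ciliary promoters, and FOXJ1 is the master regulator of motile cilium genes.

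An X-box holds a pair of half-sites in opposite orientation. The search allowed a first half-site GTNNCC whose second N is A or G, a second half-site NGNAAC whose first N is A or G and whose last N is C or T, and 0 to 3 bases between them, on both strands. Such an element lay within 1000 bp of a transcript start in 4 of 22 primary cilium genes (18.2%), 3 of 23 motile cilium genes (13.04%), no RFX factor gene and 6.96% of all protein-coding genes. The order of primary and motile turns with other settings: it was 9.09% against 13.04% with the 5′ end only. The windows cover every start, and the median number of starts was 5 for primary, 4 for motile and 3 for all protein-coding genes. Per 10000 bp of window, X-boxes numbered 0.327, 0.179 and 0.162 in the same order, so the motile density lay near that of all genes. Footprints are short stretches inside open chromatin that DNase I cut less than their surroundings, called per library by the authors. The X-boxes that a footprint touched by at least 1 bp in both libraries are shown because they carry the footprint result given below. Reference sequence (mm10, C57BL/6J) is printed on the strand of the gene with the X-box in capitals.
Ift57, chr16:49699207-49699220, plus strand: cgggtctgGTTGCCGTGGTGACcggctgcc
Bbs1, chr19:4906613-4906626, minus strand: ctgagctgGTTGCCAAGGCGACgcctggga
Rsph3a, chr17:7945988-7946000, plus strand: aacctcggGTTGCTCGGCAACcgatgggg
These 3 elements lay 19 bp upstream of the nearest start in Ift57, at the start in Bbs1 and 1 bp upstream in Rsph3a. Ift57 held a second one, 7 bp past its start and touched in replicate 2 only, at chr16:49699234-49699246.
Ift57, second element: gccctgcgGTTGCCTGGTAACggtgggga
The paralog Rsph3b carried the same letters as Rsph3a at chr17:6948335-6948347, touched in replicate 2 only. Reads could come from either copy: the 31-base stretches of the Rsph3a peak occurred a median of 2 times in the genome, so the values of Rsph3a are uncertain. For the Rsph3b peak the median was 1, though the X-box itself is shared. The other X-boxes among these genes, in Ift22, Bbs9 and Rsph4a, lay 447 to 963 bp past a start, outside peaks, and no footprint touched them.

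All 22 primary cilium genes had an open promoter in both libraries, whereas 14 of 23 motile cilium genes did in each library, 13 of them in both. An open promoter here means a peak of the smaller, stricter of the authors' peak sets that overlapped the 1000 bp on either side of any transcript start. Over all protein-coding genes the share was 63.4% in replicate 1 and 59.3% in replicate 2 (61.4% ± 2.95, SD, n = 2), so the motile share of 60.9% lay near the background in both. Primary and motile cilium genes differed by 39.1 percentage points in each library. The mean difference was 18.7 points without peaks near a start of another coding gene, and 19.6 points with a window of 2500 bp. Among the motile families, 8 of 15 Dnah genes and 6 of 8 Rsph genes had a peak in each library. The 2 libraries gave 91818 and 75245 strict peaks, 394531 and 241645 footprints, and heights whose scaling is not stated. How deeply each library was sequenced is not stated in the labels or files, which leaves single heights without a counting error. Heights in replicate 1 were a median of 1.51 times those in replicate 2 over the genes described here, and 1.49 times over all genes, so heights are compared within a library.

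Where the primary cilium genes had a peak it was also tall. The median height of the tallest promoter peak was 5.00 in replicate 1 and 3.16 in replicate 2, against 3.02 and 2.17 over all protein-coding genes with a peak and 1.91 and 1.27 over the motile cilium genes with one. In replicate 1, 20 of 22 primary cilium genes lay above the median of all genes with a peak, and in replicate 2 it was 19 of 22. Of the motile cilium genes, 2 of 23 did so in each library, Rsph1 and Rsph14 in replicate 1 and Rsph1 and Dnah6 in replicate 2. The lowest primary cilium gene, Bbs1, stood above the median of the motile cilium genes with a peak in both libraries. Without Rsph1, that motile median was 1.82 and 1.21.

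**Figure D1:**
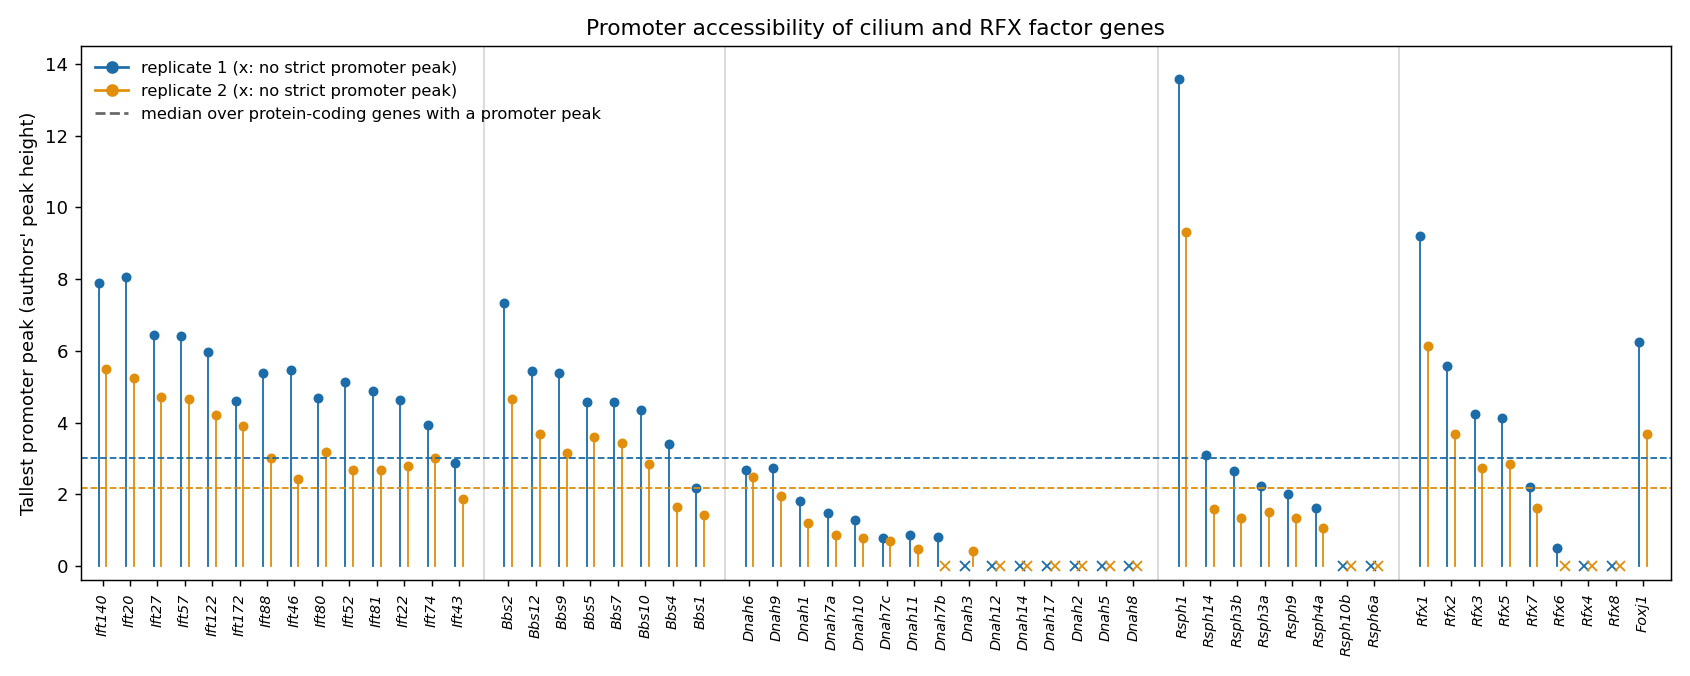
Height of the tallest strict peak within 1000 bp of a start (authors' peak height, vertical axis) for each of the 54 genes in replicate 1 (blue) and replicate 2 (orange); crosses mark no peak, and dashed lines the medians of 3.02 and 2.17 over all protein-coding genes with a peak. All 22 Ift and Bbs genes have a peak in both libraries, 8 Dnah and Rsph genes have none in either, and Rsph1 is the tallest of all at 13.6 and 9.31.

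Among the intraflagellar transport genes, Ift140, a subunit of the retrograde complex A, had a peak of 7.90 in replicate 1 and 5.51 in replicate 2. Ift20, which links complex B to the Golgi, reached 8.07 and 5.24. Ift27, a small GTPase of complex B that works with the BBSome, had 6.43 and 4.71. The lowest percentile of these 3 among all genes with a promoter peak was 92.1, for Ift27 in replicate 1. Ift57, whose X-boxes are printed above, had 6.40 and 4.65, and Ift122 of complex A had 5.96 and 4.21. The lowest was Ift43, also of complex A, with 2.87 and 1.88, below the median of all genes in both libraries. Between these lay Ift172, Ift88, Ift46, Ift80, Ift52, Ift81, Ift22 and Ift74, between 3.92 and 5.46 in replicate 1, and between 2.44 and 3.90 in replicate 2. The tallest peak of Ift46 stood at an internal start, with 5.46 and 2.44, against 1.97 and 1.36 at the 5′ end of the gene. In Ift140, Ift20, Ift122 and Ift80 the tallest peak also lay within 1000 bp of a start of a neighbour, Cramp1l, Tnfaip1, Mbd4 and Smc4, so it cannot be assigned to the Ift gene alone.

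Among the Bbs genes, Bbs2, a BBSome subunit, was tallest with 7.34 and 4.65, and its peak was centred 437 and 447 bp past the nearest start. Bbs12, a chaperonin-like protein needed to assemble the BBSome, had 5.45 and 3.69 in a peak that also lay near a start of Cetn4. Of the other subunits, Bbs9 had 5.37 and 3.15, Bbs5 had 4.57 and 3.59, and Bbs7 had 4.58 and 3.43. Neighbours in that order changed places between the libraries, so Bbs9, Bbs5 and Bbs7 cannot be ranked. Bbs10, also chaperonin-like, had 4.34 and 2.83, and Bbs4 had 3.39 and 1.64. Bbs1 was lowest with 2.19 and 1.44, although a footprint touched the X-box at its start in both libraries. Over the 22 primary cilium genes, the tallest peak also lay near a start of another coding gene in 5 (22.7%), against 19.5% and 20.4% of all genes with a peak. For the motile cilium genes this was so in 0 of 14 in each library.

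Rsph1 was the exception among the motile cilium genes. Its protein forms part of the head of the radial spoke, and its promoter peak, at chr17:31277221-31277460 across the gene's 5′ end, had a height of 13.6 in replicate 1 and 9.31 in replicate 2. It ranked 6 among the 13919 protein-coding genes with a promoter peak in replicate 1 and 4 among 13005 in replicate 2. The height was 4.39 and 3.73 times that of the next motile cilium gene, and 4.49 and 4.30 times the median of all genes with a peak. No other coding start lay within 1000 bp of the peak, and its 31-base stretches occurred a median of 1 time in the genome. A second peak, 1.89 high, lay inside the gene in replicate 1 only. The other spoke genes with a peak in both libraries were Rsph14 (3.10 and 1.60), Rsph3b (2.65 and 1.33), Rsph3a (2.22 and 1.52), the spoke head gene Rsph9 (2.00 and 1.35) and the spoke head gene Rsph4a (1.62 and 1.05). Rsph6a and Rsph10b had no strict peak in either library. Both had a weak peak in the authors' larger set in replicate 1, 0.707 for Rsph6a and 0.438 for Rsph10b, and in replicate 2 Rsph6a had one of 0.514.

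Of the dynein heavy chains, Dnah6, of the inner arm, had a promoter peak of 2.68 in replicate 1 and 2.50 in replicate 2. Dnah9, of the outer arm, had 2.73 and 1.97, so these were the tallest and changed places between the libraries. Dnah1, of the inner arm, had 1.82 and 1.21 in a peak centred 850 and 870 bp past an internal start, against 0.544 and no peak at the 5′ end of the gene. Dnah7a had 1.49 and 0.860, Dnah10 had 1.28 and 0.783, Dnah7c had 0.782 and 0.691, and the outer arm gene Dnah11 had 0.864 and 0.491. All of these but Dnah6 in replicate 2 were below the median of all genes. Dnah7b had a peak in replicate 1 only, 0.807 high, with a peak of 0.353 in the larger set of replicate 2. Dnah3 had one in replicate 2 only, 0.422 high. Dnah7a, Dnah7b and Dnah7c are close paralogs, but the 31-base stretches of their replicate 1 peaks occurred a median of 1 time in the genome.

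The dynein genes with no strict promoter peak in either library were Dnah2, Dnah5, Dnah8, Dnah12, Dnah14 and Dnah17. Dnah5 encodes an outer arm chain, and Dnah8 and Dnah17 encode outer arm chains of sperm. The authors also list every base with a false discovery rate under 0.05 for DNase I signal. No such base lay in the promoter windows of Dnah2, Dnah5, Dnah12, Dnah14 and Dnah17 in either library. Dnah8 had 486 listed bases in replicate 1 and 130 in replicate 2, and a peak of 0.494 in the larger set of replicate 1. Of the 23 motile cilium genes, 18 and 17 had a listed base, and 17 and 16 a peak of the larger set, against 69.2% and 66.1%, and 68.2% and 65.0%, of all genes. In bulk tissue, fewer cells with an open promoter and a less open promoter in every cell cannot be told apart.

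Among the RFX factors, Rfx1 was tallest, with 9.20 in replicate 1 and 6.14 in replicate 2, rank 126 and rank 104 among all genes with a promoter peak. Rfx2 and Rfx3, the main ciliogenic members of the family, had 5.58 and 3.69, and 4.25 and 2.73. Rfx5, which acts on MHC class II genes rather than on ciliary ones, had 4.14 and 2.83. These 4 lay above the median of all genes in both libraries, and Rfx7, with 2.20 and 1.61, below it. Rfx6, known for pancreatic endocrine cells, had a peak in replicate 1 only, of 0.494. Rfx4 and Rfx8 had none in either. In all, 6 and 5 of 8 RFX factor genes had a promoter peak (75% and 62.5%), against 63.4% and 59.3% of all genes. In the larger set Rfx4 had a promoter peak of 0.782 in replicate 1, Rfx6 one of 0.253 in replicate 2, and Rfx8 had no listed base in either library. Foxj1 had a peak of 6.25 and 3.68 at chr11:116335361-116335540 in replicate 1, rank 1261 and rank 2129, with no neighbour's start near it.

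Rfx4, known for its part in brain development, was not without open chromatin. Its body held 6 strict peaks in replicate 1 and 5 in replicate 2. The site at chr10:84819781-84820000 had 1.63 and 0.975, and the one at chr10:84852641-84852860 had 1.47 and 1.21, 14746 and 14493 bp from the nearest start of the gene in replicate 1. Rfx8 had a site at chr1:39685941-39686140 of 2.23 and 1.22, in replicate 1 5731 bp from its nearest start. Inside Rfx2, the site at chr17:56814421-56814620 had 2.99 and 1.60, and the one at chr17:56808621-56808800 had 2.50 and 1.50. Upstream of Rfx7, the site at chr9:72530341-72530540 had 2.40 and 1.58, against 2.20 and 1.61 at its promoter. Over gene bodies and 20000 bp on each side, primary cilium genes had a median of 0.616 and 0.491 strict peaks per 10000 bp, motile cilium genes 0.335 and 0.328, RFX factor genes 0.631 and 0.504, and all protein-coding genes 0.562 and 0.456. Median gene lengths were 34.7, 128, 55.4 and 17.4 kb in the same order. The fixed flanks, which can hold promoters of neighbours, therefore made up unlike parts of these spans. The part of gene length in the densities was not tested.

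The promoters also differed in base composition, which the choice of genes did not use. The ratio of observed to expected CpG dinucleotides in the 1000 bp around the 5′ end had a median of 0.709 over primary cilium genes, 0.409 over motile cilium genes, 0.776 over RFX factor genes and 0.553 over all protein-coding genes. A ratio of at least 0.6, called CpG-rich here, was met by 18 of 22 primary cilium genes, 5 of 23 motile cilium genes and 45.9% of all genes. CpG-rich promoters had a strict peak in 18 of 18 primary and 5 of 5 motile cilium genes in both libraries, and in 94.1% and 90.2% of all such genes. Heights still differed in this class. Their medians were 5.25 and 3.38 for primary, 2.22 and 1.33 for motile, and 3.56 and 2.46 for all such genes with a peak. Among CpG-poor promoters, 4 of 4 primary and 9 of 18 motile cilium genes had one in each library, against 37.4% and 33.0% of all such genes. These 4 primary cilium genes had ratios from 0.560 to 0.595, just under the limit. The 18 motile cilium genes had ratios from 0.174 to 0.573, so the groups were not matched for CpG content within this class. The motile cilium genes with a peak in both libraries had ratios from 0.247 to 0.798 with a median of 0.519. The 8 with none had ratios from 0.192 to 0.415, and the 2 with a peak in 1 library had 0.174 and 0.242. Rsph1, at 0.573, and Rsph14, at 0.247, were below the limit and still open.

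**Figure D2:**
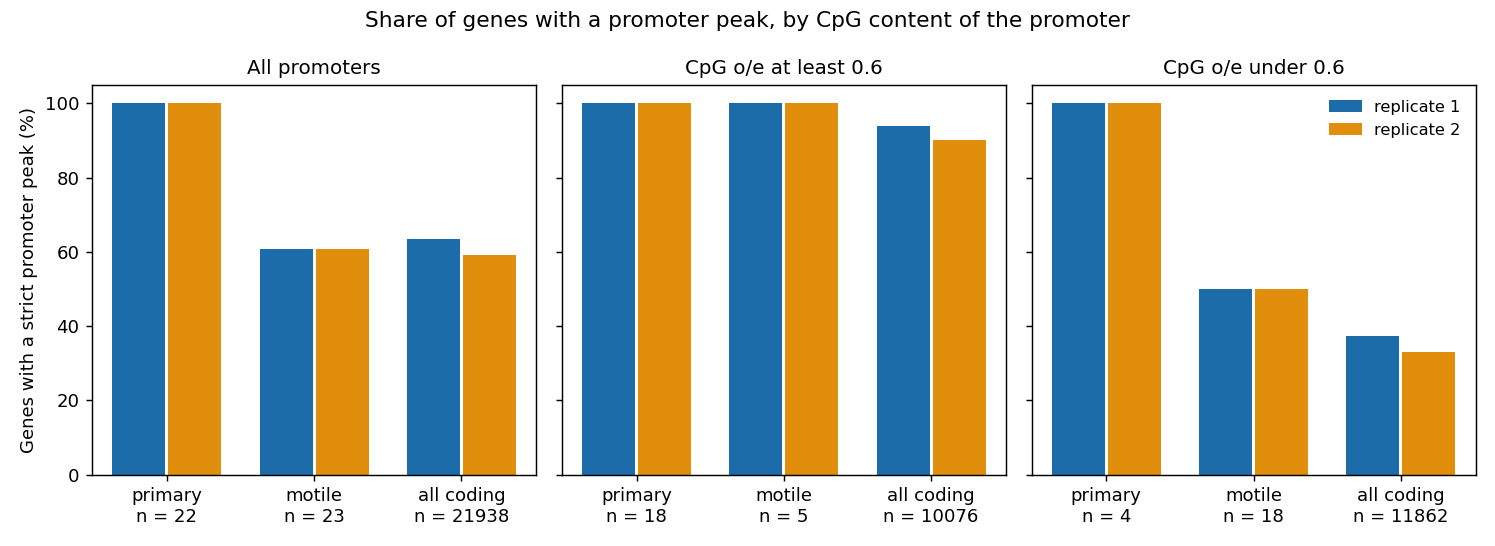
Share of genes with a strict promoter peak (vertical axis, percent) in replicate 1 (blue) and replicate 2 (orange), over all promoters (left) and split at a CpG ratio of 0.6 (middle and right), with the number of genes under each pair of bars. In the CpG-rich panel primary and motile cilium genes both reach 100%, while in the CpG-poor panel they stand at 100% of 4 and 50% of 18 genes. The ratios in the CpG-poor panel run from 0.560 to 0.595 for primary and from 0.174 to 0.573 for motile cilium genes. The 2 groups are therefore not matched for CpG content there.

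**Figure D3:**
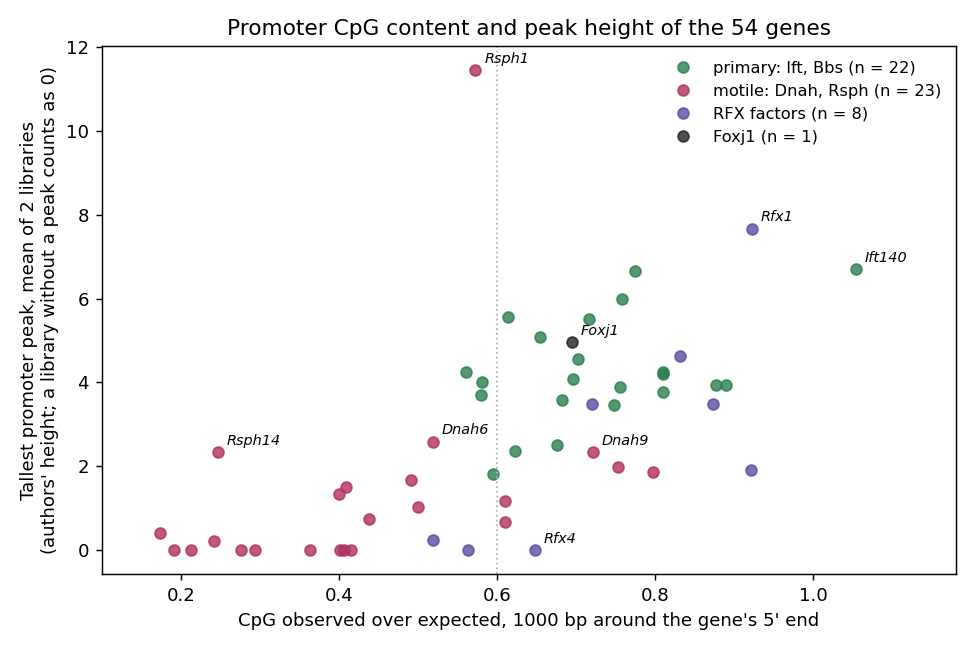
Ratio of observed to expected CpG around the 5′ end (horizontal axis) and height of the tallest promoter peak, mean of the 2 libraries with 0 for a library without a peak (vertical axis), for the 54 genes coloured by group; the dotted line marks 0.6. Motile cilium genes lie mostly to the left and low, and Rsph1 stands far above them at a ratio of 0.573.

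A stretch of 150 bases upstream of the 5′ end of Ift140, which had the highest CpG ratio of the 54 genes, 1.05, shows such a CpG-rich promoter. It is printed on the strand of the gene from mm10, with the reverse complement of the half-site GTTGCC, touched by a footprint in replicate 2, in capitals.
Ift140, chr17:25015935-25016084, plus strand: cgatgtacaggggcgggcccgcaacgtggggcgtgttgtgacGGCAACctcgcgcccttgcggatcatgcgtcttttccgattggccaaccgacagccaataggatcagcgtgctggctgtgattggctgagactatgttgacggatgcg

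Footprints lay in the promoter windows of all 22 primary cilium genes in both libraries, of 16 of 23 motile cilium genes in each, and of 66.5% and 62.3% of all protein-coding genes. A footprint touched an X-box in 2 of 22 primary cilium genes in each library, Ift57 and Bbs1. Among motile cilium genes it did so in 1 of 23 in replicate 1, Rsph3a, and in 2 of 23 in replicate 2, Rsph3a and Rsph3b. Over all protein-coding genes the share was 1.66% and 1.4%. None of the RFX factor genes and not Foxj1 had such a footprint. The counts of the primary and motile groups were at most 1 gene apart.

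Single half-sites were touched more often at primary cilium genes. The half-site GTTGCC, on either strand and including those inside an X-box, lay in the windows of 70.9% of all protein-coding genes, and in 19 of 22 primary, 21 of 23 motile and 7 of 8 RFX factor genes. A footprint touched it in 8 of 22 primary cilium genes in each library (36.4%), 7 of them in both, against 6.84% and 4.43% of all genes. For motile cilium genes it was 3 and 2 of 23, with Rsph3a alone in both libraries, and for RFX factor genes 0 of 8. Counting only genes with a strict promoter peak, the shares were 36.4% in each library for primary cilium genes, 21.4% and 14.3% for motile cilium genes, and 10.6% and 7.31% for all genes. These genes were not matched for peak height. Their median height percentile among all genes with a peak was 80.1 and 74.2 for primary, and 30.2 and 25.3 for motile cilium genes. The part of height in these shares was not tested. Footprints per 100 bp of promoter peak numbered 1.44 and 1.32 for primary cilium genes, 1.31 and 1.07 for motile cilium genes, and 1.20 and 1.12 for all genes. The primary cilium genes with a touched half-site outside an X-box in both libraries are shown because they make up most of that count.
Ift52, chr2:163017002-163017007, plus strand: tcccgtttccatGGCAACcgttggcccaag
Bbs7, chr3:36613505-36613510, minus strand: gaatgcgccccgGTTGCCttggaaaccggc
Ift81, chr5:122614517-122614522, minus strand: cgcatggcaaccGTTGCCaaggagcggtct
Bbs2, chr8:94098421-94098426, minus strand: catccgctgctaGGCAACcggccggccaag
Ift88, chr14:57424092-57424097, plus strand: ggagtcgcgcctGGCAACggctgggcgtcc
In Ift81, 1 footprint covered a pair of half-sites in opposite orientation, 2 and 9 bp upstream of the start. Their order, GGCAAC before GTTGCC, was the reverse of that in an X-box, and the search found no X-box in the Ift81 window. In addition, Ift122 had a touched half-site in replicate 1 only and Ift140 in replicate 2 only, and Ift57 and Bbs1 had theirs inside the X-boxes shown first. Among motile cilium genes, Dnah7a and Dnah11 had a touched half-site in replicate 1 only, and Rsph3b in replicate 2 only. The touched half-sites of Rsph3a and Rsph3b lay inside their X-boxes.

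With a T allowed as the last base of the first half-site, a form chosen after the values were seen, 4 of 23 motile cilium genes had a footprint on an X-box in each library, 3 of them in both. The share of all protein-coding genes was 1.98% and 1.65%, and primary cilium genes remained at 2 of 22 in each. Among the added genes were Dnah7b in both libraries and Dnah7a in replicate 1. In replicate 2 Dnah7b had no strict promoter peak, so that footprint lay outside the strict set.
Dnah7b, chr1:46066821-46066849 shown, plus strand: gccagtttGTTGCTTAGCAACgaatcgac
Dnah7a carried the same letters as Dnah7b, so reads inside these letters could come from either copy. The Dnah7b element lay 97 bp past the nearest start.

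In the 300 bp promoters of RefSeq (250 bases before to 50 after the start), 46 of the 54 genes were matched. Ift80, Ift81, Ift122, Dnah3, Rsph1, Rsph4a, Rsph10b and Foxj1 were not. The half-site GTTGCC on either strand was present in 8 of 19 matched primary cilium genes (42.1%), 5 of 19 motile cilium genes (26.3%), 4 of 8 RFX factor genes and 14.0% of 16522 protein-coding genes. The CCAAT box was present in 11 of 19 primary (57.9%) and 8 of 19 motile (42.1%) cilium genes, against 42.1% of all genes. The forkhead words TGTTTAC or TGTTTGT, forms of the kind that FOXJ1 binds, were in 0 of 19 primary and 1 of 19 motile cilium genes, against 9.77% of all genes. A match describes these letters in this window and is not evidence of binding.

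Ciliary genes with other symbols gave a wider view, beside the 63.4% and 59.3% of all protein-coding genes with a promoter peak. All 24 matched genes of the transition zone at the cilium base and of BBSome-linked proteins had a promoter peak in both libraries, with a median height of 4.57 and 3.20. By the mean of both libraries the tallest were Nphp4 (10.3 and 6.37), Mkks (7.84 and 5.00) and Rpgrip1l (6.76 and 5.43), all of them near a neighbour's start too. B9d1, with no such neighbour, had 6.86 and 4.81, above Rpgrip1l in replicate 1. All 17 genes of transport motors and other transport subunits had one as well, with a median of 3.93 and 2.52, led by Kifap3 of the kinesin motor (6.13 and 4.62), Wdr19 (5.83 and 4.52) and Wdr34 (5.201 and 3.86). Of 35 further genes of the motile axoneme and its assembly, 32 and 33 had a peak, with a median of 2.69 and 1.60, so these were open more often than the Dnah and Rsph genes. The tallest were Ccdc151 (8.15 and 5.75), Dnaic1 (4.87 and 4.07) and Ccdc103 (4.74 and 3.39), each also near a start of a neighbour, Prkcsh, Fam219a and Eftud2. Dnaaf5, Dnali1, Dnaaf1, Cfap52, Ccdc40, Dnaaf2 and Cfap43 also had a neighbour's start near the peak, which limits the comparison. Of the Dnah and Rsph genes with a peak, 0 of 14 did so in each library. Dnaaf3 and Tekt2 had no peak in either library.

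Of 8 regulators of multiciliation, 7 had a peak in replicate 1 (87.5%, against 63.4% of all genes) and 4 in replicate 2 (50%, against 59.3%). Ccno (3.30 and 2.68) was above the median height of all genes in both libraries, and Cdc20b (1.73 and 1.56) and Deup1 (0.707 and 0.607) followed it. Foxn4 had no peak in either library. Mcidas and Gmnc, which start the multiciliation program, had peaks of 0.889 and 0.789 in replicate 1 and none in replicate 2. Of 10 receptors and enzymes of neuronal cilia, 7 and 5 had a peak (70% and 50%), near the 63.4% and 59.3% of all genes. The tallest were those of the dopamine receptor gene Drd1 (2.77 and 1.34), the melanin-concentrating hormone receptor gene Mchr1 (2.18 and 1.58) and Adcy3 (1.40 and 1.11), the adenylyl cyclase of neuronal cilia. The galanin receptor genes Galr2 and Galr3 had none in either library. Of the partners of RFX5 at MHC class II genes, Rfxank (6.07 and 3.21) and Rfxap (4.19 and 2.72) had a peak, and Ciita did not.

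A footprint touched an X-box in 9.09% of the Ift and Bbs genes in each library, as given above. Such footprints were present in 5 of 24 transition zone and BBSome-linked genes in each library (20.8%), in 3 of 17 motor and transport genes in each (17.6%), and in 9 and 7 of 35 motile axoneme genes (25.7% and 20%). None of 10 neuronal ciliary receptor and enzyme genes and none of 7 neuronal marker genes had one. Over all protein-coding genes the share was 1.66% and 1.4%, so 0 in lists this small does not set them apart. Some of the genes with a footprint on an X-box also had a neighbour's start near the promoter peak. They were Tmem67, Tctn3, Kif17, Dnaic1, Dnaaf1, Dnaaf2, Ccdc40 and Ccdc103, which limits these shares. Over these lists and the marker lists, 16 X-boxes were touched in both libraries, 13 of them within 100 bp of a start. Examples from transition zone, transport and BBSome genes and from motile cilium genes are printed, chosen after their sequences were seen. The search pattern fixes most of their capitals, so their likeness is no result.
Tmem67, chr4:12088070-12088082, minus strand: cgtgcgtgGTAACCTAGCAACcaggcgtc
Ahi1, chr10:20952568-20952581, plus strand: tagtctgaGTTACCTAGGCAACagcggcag
Lztfl1, chr9:123717775-123717789, minus strand: tttctctGTTGCCATTGGCAACggcaggc
Dync2li1, chr17:84626453-84626466, plus strand: gtgacgtcGTTGCCATGGCAACcgaggagc
Ttc8, chr12:98920312-98920324, plus strand: accggatgGTTGCTAGGCAACtgcatctc
Ccdc40, chr11:119229116-119229128, plus strand: ttgatggcGTAGCCTAGCAACgagagatg
Cfap44, chr16:44394772-44394785, plus strand: ggagggacGTTGCTATGGCAACcgcagtaa
Dnaic2, chr11:114727386-114727398, plus strand: cggccaggGTTGCTAGGCAACtggtaaac
Ccdc103, chr11:102881221-102881233, plus strand: gtggcgccGTTGCTAGGCAACaatctctg

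**Figure D4:**
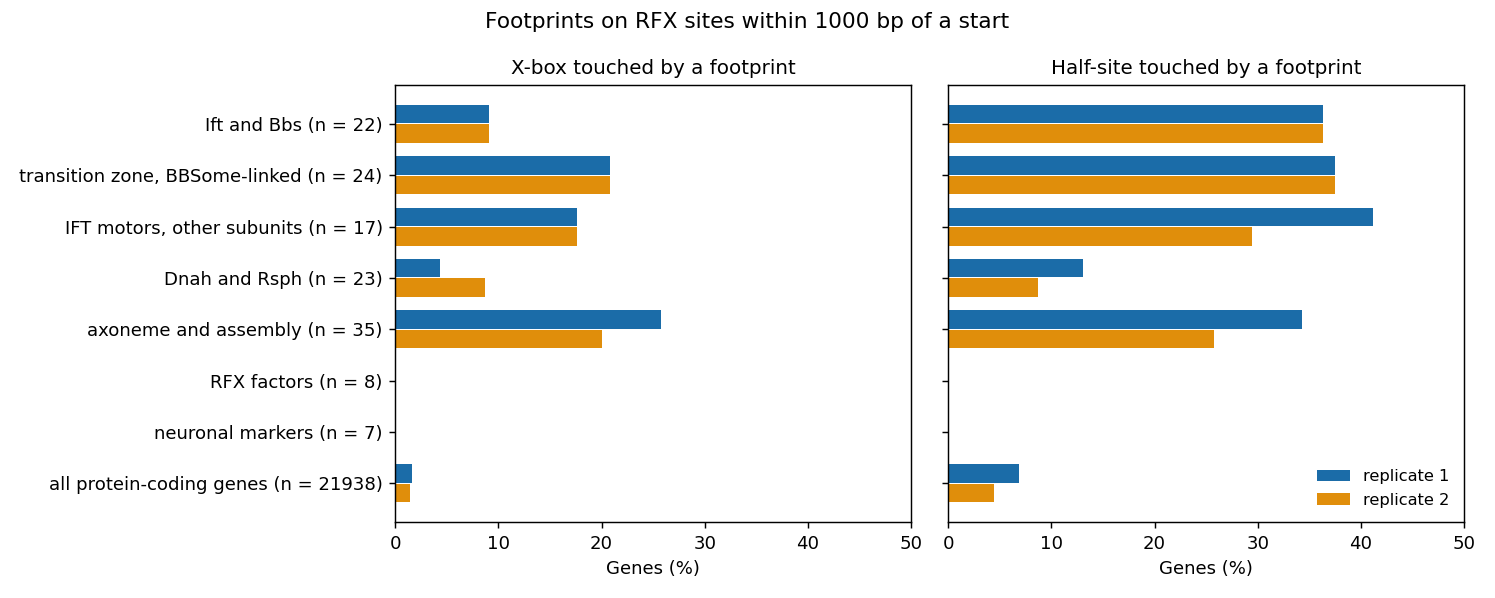
Share of genes (horizontal axis, percent) with a footprint touching an X-box (left) or the half-site (right) within 1000 bp of a start, per list, in replicate 1 (blue) and replicate 2 (orange). The Ift and Bbs, transition zone, motor, Dnah and Rsph and axoneme lists lie above the values of all protein-coding genes (1.66% and 1.4% for the X-box, 6.84% and 4.43% for the half-site), and RFX factor and neuronal marker genes are at 0. For the X-box, the Dnah and Rsph bars rest on Rsph3a and, in replicate 2, its paralog Rsph3b. The replicate 2 bar of the half-site rests on the same paralogs, at sites inside those X-boxes. Lists of 8 RFX factor and 7 neuronal marker genes are too small to set 0 apart from the values of all genes.

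Cell type markers were read in the same way, beside the 63.4% and 59.3% of all protein-coding genes with a promoter peak. The ependymal share of 62.5% and the astrocyte share of 60%, the same in both libraries, lay near these values. All 7 neuronal markers had a promoter peak in replicate 1 and 6 in replicate 2, led by Syt1 (3.06 and 2.23), Snap25 (2.76 and 2.01) and Rbfox3 (2.85 and 1.54), Slc17a7 being the one without (1.06 in replicate 1). Of the ependymal markers, 5 of 8 had a peak in each library, led by Enkur (5.11 and 2.74, also near Thnsl1) and Dynlrb2 (4.73 and 2.79) and followed by Tekt4 (1.64 and 0.799), while Tmem212, Rarres2 and Calml4 had none. Of 6 choroid plexus markers, Kl had a peak in replicate 1 (1.08) and none had one in replicate 2; Ttr, Folr1 and Clic6 were among the 5 without one in either. Astrocyte markers had a peak in 3 of 5, Sox9 (2.11 and 1.51), Gfap (2.02 and 1.14) and Slc1a3 (1.05 and 0.668), but not Aqp4 and Aldh1l1. Of the germ cell markers, Dazl alone of 5 had one (1.45 and 0.914), with none at Ddx4, Sycp3 and Tnp1 among others. Of 3 airway secretory markers, Foxa1 had one in replicate 2 (0.430), and Scgb1a1 and Krt5 had none. Several ependymal markers are ciliary genes themselves, so they are no independent measure of ependymal cells, and the part of ependymal cells in the peaks of Rsph1, Foxj1 and the other motile cilium genes was not tested.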

How the data were processed

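DNase-seq was made from 2 cortex libraries. Per the labels, the deposited files are aligned to mm10 and come from each library separately; the sources used here name no aligner or caller. Peak height, in column 7 of the deposited peak lists, is the authors' signal, with unstated scaling. For single bases the authors deposited a q-value (false discovery rate, on the p-value scale), listed under 0.05, and the footprints carry the authors' constant p-value of 0.01. The strict set holds a few overlapping peaks.

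Genes and starts came from GENCODE M21 and sequence from GRCm38.p6. Peaks and footprints were joined to windows of 1000 bp (overlap of at least 1 bp) in Python 3.11.15 with NumPy 2.4.6 and pysam 0.24.0, after tests on simulated data (2000 of 2000 peaks and 400 of 400 planted X-boxes recovered). No test between libraries was possible.

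All members are named; heights are given for RFX factors, Foxj1, the 5 tallest and lowest members of each family and those with a peak in 1 library; further values were added. For the other lists the 3 tallest and up to 3 without a peak are named, and further genes and the printed half-sites and X-boxes of other lists were chosen after their values were seen. Members and lists were chosen with earlier results of these data known. Of the listed genes, Tctn2 was not matched. Alternatives covered the window, peak set, start definition, height, neighbouring genes, motif form and each library left out. One sequence element among the relaxed X-boxes is not reported here.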

Additional observations from a re-analysis of the deposited data

How the results depend on the processing

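The difference in promoter peaks kept its direction under every alternative run; the order of the X-box shares did not. The difference between primary and motile cilium genes in the share with a promoter peak (39.1 percentage points) was 41.3 with a 500 bp window, with the 5′ end only and with starts of coding transcripts only. It was 54.3 with the higher 50% of peaks, 28.3 with the larger peak set, 19.6 with a 2500 bp window and 18.7 without peaks near another gene's start. The primary share was then 79.5% without such peaks, against 53.1% and 48.9% of all genes, and the motile share 80.4% with the 2500 bp window, against 66.9% and 62.9%. The RFX share was 81.2% with the 2500 bp window and with the larger set. Over all genes it was 66.9% and 62.9% with that window, and 68.2% and 65.0% with that set. With the half-site in place of the X-box, the window shares were 86.4% (primary) and 91.3% (motile), and the footprint shares 36.4% and 10.9%. The motile footprint share was also 10.9% with the 2500 bp window. With the relaxed X-box, chosen after seeing the data, shares were 22.7% (primary) and 34.8% (motile) for the window and 9.09% and 17.4% for the footprint. The primary window share of 18.2% was 9.09% with the 5′ end only or coding transcripts only, against 13.04% for motile cilium genes in both.

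With either library left out, the primary share with a peak was 100%, the motile share 60.9%, their difference 39.1 points and the RFX share 62.5% to 75.0%. Median heights were 3.16 to 5.00 (primary) and 1.27 to 1.91 (motile). Footprint shares were 100% and 69.6%, and X-box footprint shares 9.09% (primary) and 4.35% to 8.70% (motile). No paired analysis was possible because there was 1 group. Beyond the peaks, starts or sites that each alternative admits, causes were not tested. Depth is unknown, so a peak missing from 1 library and shallow sequencing of it cannot be told apart.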
